A study of Homo sapiens with 4 samples.

Results

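Notch, Hedgehog and stemness factors were examined among the antibodies of a Reverse Phase Protein Array (RPPA), an assay in which lysates are printed as small spots and each slide is probed with 1 antibody. The antibodies were taken by name, as every one directed at Notch1, Notch3, Jagged1, HES1, Gli1, Gli3, Patched, Sox2, Sox17 or Oct-4. This gave 10 of the 440 antibodies analysed here, with both a total and a cleaved form of Notch1. They covered 9 of the 10 proteins, because no antibody to Sox17 was among the 440. All 10 antibodies matched 1 human gene each, with Patched entered as PTCH1 and Oct-4 as POU5F1. The cells were LN229, an established human glioblastoma line. The untreated group had 2 samples labelled as control at 0 min, and the other group had 2 samples exposed to 300 nM salmon calcitonin (sCT), a peptide agonist of the calcitonin receptor (CTR), for 60 min. No genetic change was named for either group, and all values describe 1 line at 1 dose and 1 time. The samples include no untreated cells at 60 min, so an effect of sCT cannot be told apart from one of time. Below, after sCT means the sCT samples at 60 min set against the untreated samples at 0 min. The series text calls the samples biological duplicates without saying whether they were separate cultures, so p-values measure only the spread between these samples.

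Notch receptors are held at the cell surface and are engaged by ligands such as Jagged1 on neighbouring cells. Engagement leads to cleavage by γ-secretase, and the released intracellular domain enters the nucleus and switches on targets such as the repressor HES1. In Hedgehog signalling, Patched restrains Smoothened until ligand binds, and the pathway ends in the GLI proteins, of which Gli1 is an activator and a target gene, while Gli3 is often processed to a repressor. PKA and GSK3 are among the kinases that phosphorylate GLI proteins. Sox2 and Oct-4 are transcription factors of pluripotent cells, and Sox2 is also associated with glioma stem-like cells.

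The deposited levels were linear ratios with a median close to 1 in every sample. A level compares samples for 1 antibody and does not compare antibodies with each other, and signal over background is unknown. Pearson's r of log2 levels across antibodies, which are no replicates, was 0.790 for the untreated pair and 0.975 for the sCT pair. This r depends on the range of levels, which was 0.426 to 3.85 in untreated samples and 0.045 to 6.88 in sCT samples. It also depends on single antibodies with replicates far apart. LDHA, which had the lowest untreated level, was at 2.75 and 0.426 in untreated samples and at 6.70 and 1.33 in sCT samples. The part of LDHA in r was not tested. The median SD between replicates was similar, at 0.045 log2 units in the untreated group and 0.041 in the sCT group. Of the glioma markers considered, Sox2 and vimentin were on the panel, and relative levels cannot show whether a marker was present. The 4 antibodies to markers of other cell types (E-Cadherin, CD45, CD4 and CD68) summed to 3.83 and 3.99 in untreated samples and to 4.41 and 4.63 in sCT samples, and 1 of them, CD68, was called higher (log2 fold change 0.41, adjusted p = 0.00174). The part of these differences in the results that follow was not tested.

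After sCT, Sox2, Gli3, total Notch1, Gli1 and HES1 were lower and Notch3 was higher. Cleaved Notch1, Jagged1, Patched and Oct-4 did not pass the test. The falls ranged from -0.91 log2 units for Sox2 to -0.15 for HES1, and the rise of Notch3 was 0.33. At an adjusted p of 0.05 in limma, 6 of the 10 were called, against 55.0% of all 440, so the share of calls was close to that of the panel. Of the 6, 5 were lower (33.6% of the panel) and 1 was higher (21.4% of the panel). The sCT and untreated samples did not overlap for 9 of the 10, where 85.9% of the panel showed no overlap. The median log2 fold change was -0.12 over the 10 antibodies and 0.02 over the panel. Without Sox2, which the study placed among its Hippo pathway proteins on these same samples, the median of the other 9 was -0.08.

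**Figure D1:**
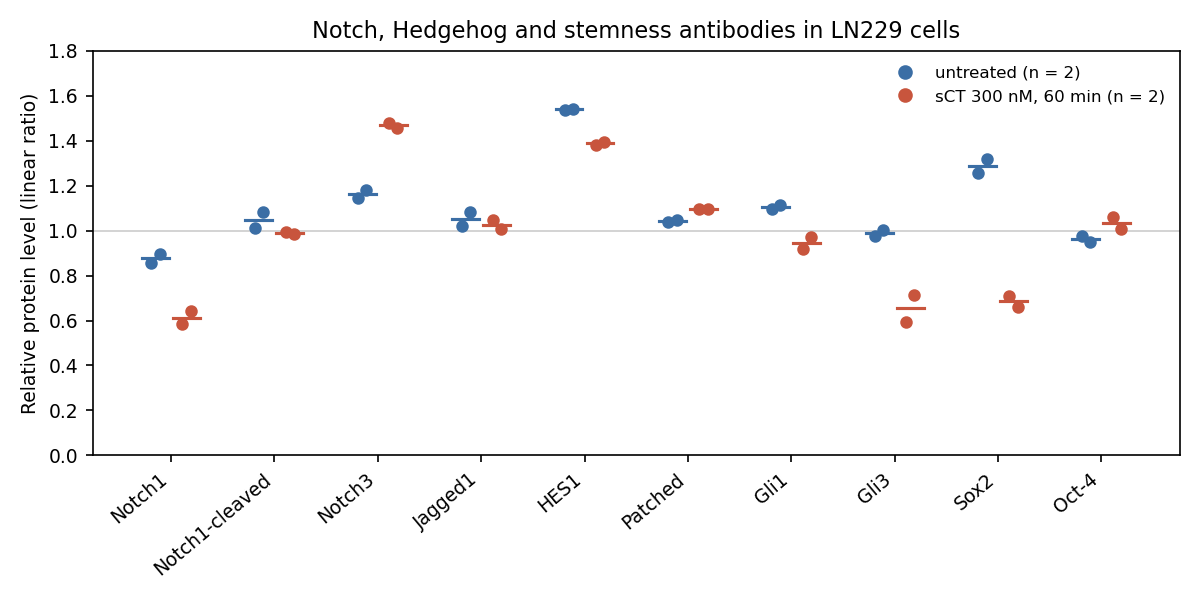
Relative protein level (linear ratio, y axis) of the 10 antibodies (x axis) in LN229 cells, with 1 point per sample and a bar at the mean of each group of 2. Sox2, Gli3 and Notch1 lay well below their untreated levels after sCT, Notch3 lay above, and the groups overlapped only for Jagged1.

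On the deposited levels, total Notch1 fell and Notch3 rose. Total Notch1 had levels of 0.856 and 0.898 in untreated samples and of 0.582 and 0.643 after sCT. Both sCT samples were below both untreated samples, by 0.52 log2 units on average (SE 0.07, adjusted p = 0.00332), which left the mean 30.1% lower. This change depended strongly on the scaling of the samples. Quantile normalization, which gives the samples 1 common distribution, left -0.09 (adjusted p = 0.589). The deposited distributions differed, with lowest levels of 0.596 and 0.426 in untreated samples and of 0.045 and 0.047 in sCT samples. Whether 1 common distribution suits these samples was not tested. Notch3, a related receptor, had levels of 1.15 and 1.18 in untreated samples and of 1.48 and 1.46 after sCT. Both sCT samples were higher, by 0.33 log2 units (SE 0.05, adjusted p = 0.00366). Quantile normalization raised this to 0.49 (adjusted p = 0.00432), while relative loading control centring, which places each sample on the median of 6 loading controls after each has been centred on its own mean, lowered it to 0.18 (adjusted p = 0.0997).

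Notch1 was also measured in its active form. The antibody to cleaved Notch1 gave 1.01 and 1.08 in untreated samples and 0.992 and 0.986 after sCT. The 2 sCT samples were the lowest, but the log2 fold change of -0.08 (95% interval -0.22 to 0.06) did not pass the test (adjusted p = 0.221). With relative loading control centring it was -0.24 and passed (adjusted p = 0.0372). Set within each sample, cleaved minus total Notch1 was 0.24 and 0.27 log2 units in untreated samples and 0.77 and 0.62 after sCT, a difference of 0.43. Under quantile normalization this difference vanished (-0.000102) and the groups overlapped. This pair was added after the values of its members were seen, and the labels do not say which part of the receptor the total antibody recognises.

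Of the ligand and the target of the pathway, HES1 was called and Jagged1 was not, and the difference between them was not tested. Jagged1 had levels of 1.02 and 1.08 in untreated samples and of 1.05 and 1.01 after sCT. It was the only member whose groups overlapped, with a log2 fold change of -0.03 (95% interval -0.18 to 0.11, adjusted p = 0.620). HES1, a transcriptional repressor that Notch activates, was at 1.54 in both untreated samples and at 1.38 and 1.39 after sCT. The replicates of HES1 were very close to each other and the groups did not overlap. Its fall was small, at -0.15 log2 units (SE 0.04, adjusted p = 0.0376), or 9.79% of the mean. It was not past the threshold in limma when any 1 of the 4 samples was left out (adjusted p between 0.0909 and 0.153, the lowest without untreated replicate 1 and the highest without sCT replicate 1). Quantile normalization turned its direction, to 0.08 (adjusted p = 0.267), whereas relative loading control centring gave -0.31 (adjusted p = 0.0117).

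Both GLI proteins were lower after sCT, and Patched, the receptor of the pathway, was not. Gli3 had levels of 0.977 and 1.001 in untreated samples and of 0.595 and 0.713 after sCT. The label does not say whether the antibody reads full-length Gli3, the processed repressor or both. The sCT samples were both lower, and they also stood 1.20-fold apart, a wider replicate gap than that of all but 3.41% of the panel in the sCT group. On the log2 scale the change was -0.60 (SE 0.10, adjusted p = 0.00649), a mean 33.9% lower. With each sample left out in turn it ran from -0.73 to -0.47 and kept its call, with an adjusted p of at most 0.0479.

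Gli1, the activator that is also a target of the pathway, had levels of 1.10 and 1.11 in untreated samples and of 0.918 and 0.973 after sCT. Both sCT samples were below both untreated samples. The log2 fold change was -0.22 (SE 0.05, adjusted p = 0.0189), a mean 14.4% lower. This call was lost when untreated replicate 1 (adjusted p = 0.0607), untreated replicate 2 (0.0789) or sCT replicate 1 (0.102) was left out. Patched, the receptor that holds the pathway off, had levels of 1.04 and 1.05 in untreated samples and of 1.09 in both sCT samples. The groups did not overlap, but the log2 fold change of 0.07 (95% interval -0.04 to 0.18) did not pass the test (adjusted p = 0.2001), and it was -0.09 with relative loading control centring.

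Sox2 showed the largest change of the 10 antibodies, and Oct-4 showed none that passed the test. Sox2 had levels of 1.26 and 1.32 in untreated samples and of 0.710 and 0.661 after sCT. Both sCT samples were far below the untreated ones, and the mean was 46.8% lower (log2 fold change -0.91, 95% interval -1.07 to -0.75, adjusted p = 0.000416). Even so, 12.0% of the panel had a lower log2 fold change than Sox2, which ranked 54th of 440 from the lowest. Oct-4 had levels of 0.977 and 0.950 in untreated samples and of 1.06 and 1.01 after sCT. Its sCT samples were slightly higher, with a log2 fold change of 0.10 (95% interval -0.03 to 0.23, adjusted p = 0.146), and relative loading control centring gave -0.06. Sox2 minus Oct-4 was 0.36 and 0.47 log2 units in untreated samples and -0.58 and -0.61 after sCT. The responses of these factors thus differed by -1.01 log2 units.

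**Figure D2:**
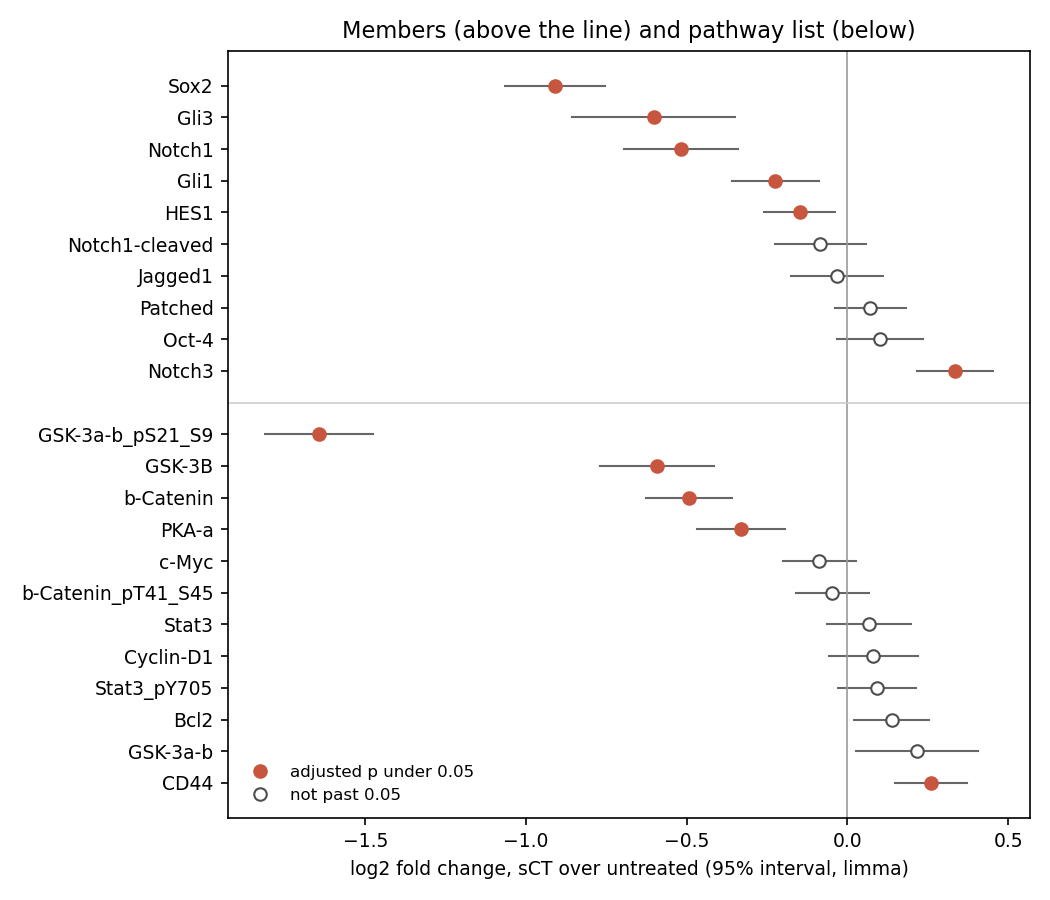
Log2 fold change of sCT over untreated samples (x axis) with its 95% interval from limma, for the 10 antibodies (above the line) and the 12 pathway antibodies (below it), where filled points passed an adjusted p of 0.05. Sox2, Gli3, Notch1, Gli1 and HES1 lay below 0 and Notch3 above, while 4 intervals among the 10 crossed 0.

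Ordered by log2 fold change, the antibodies ran from Sox2 through Gli3, Notch1, Gli1, HES1, cleaved Notch1, Jagged1, Patched and Oct-4 to Notch3. Neighbours were compared within each sample, and a step was taken as larger than the spread where it was over 2 times the larger SD of the pair's log2 difference. Only the steps from Notch1 to Gli1 (0.29 log2 units) and from Oct-4 to Notch3 (0.23) met this. The step from Sox2 to Gli3 was 0.31 but carried an SD of 0.26 in the sCT samples. By this rule the size of the Sox2 fall was not separated from that of Gli3. Neighbours' log2 differences did not overlap between groups except for Patched and Oct-4, but the order was set by these same values. On the deposited levels, the SD rule separated no neighbours within Sox2, Gli3 and Notch1 or within the run from Gli1 to Oct-4. The order changed under quantile normalization, where Notch1 (-0.09) came above Gli1 (-0.21) and level with cleaved Notch1 (-0.09), and HES1 (0.08) came above Patched (0.04).

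Differences in response between 5 pairs were also tested within samples. Notch3 minus Notch1 rose from a mean of 0.41 to 1.26 log2 units, a difference of 0.85. Gli3 minus Gli1 went from -0.16 to -0.54, a difference of -0.38, and Jagged1 minus Notch1 from 0.26 to 0.75, a difference of 0.49. On the deposited levels, for these pairs and for those of Sox2 with Oct-4 and of cleaved with total Notch1, the sCT samples did not overlap the untreated samples. Centring leaves such differences as they are, but quantile normalization reduced them to 0.58 for Notch3 minus Notch1, -0.17 for Gli3 minus Gli1, 0.04 for Jagged1 minus Notch1, where the groups then overlapped, and -0.79 for Sox2 minus Oct-4. The exact permutation test, two-sided, gave p = 0.333 for each pair (adjusted p = 0.333 over the 5), which is the smallest p that 2 samples against 2 allow.

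**Figure D3:**
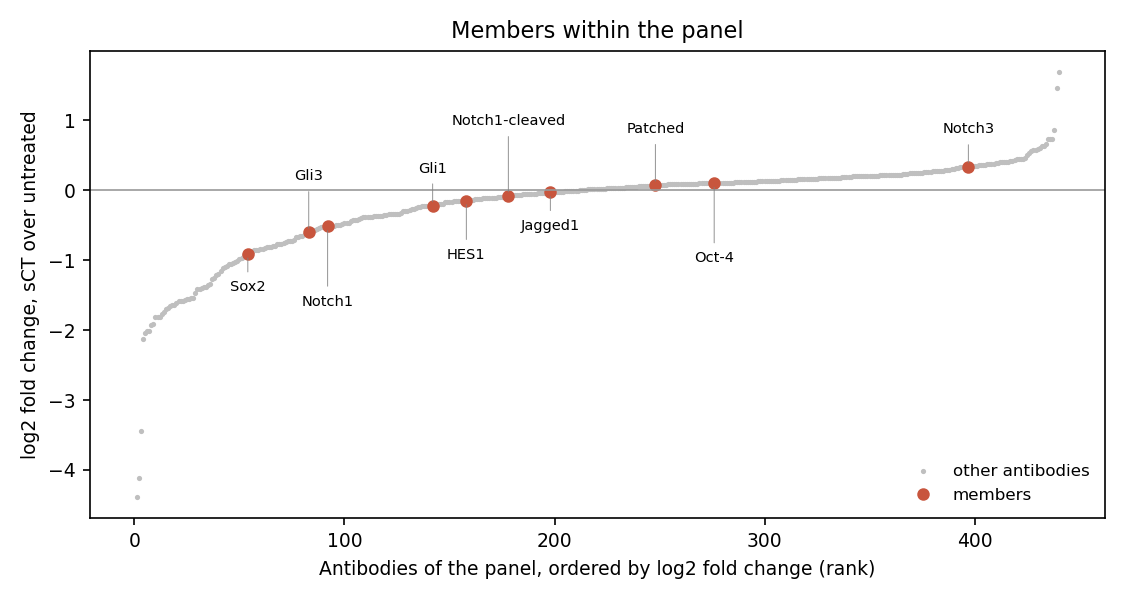
Log2 fold change of sCT over untreated samples (y axis) for all 440 antibodies ordered from lowest to highest (x axis, rank), with the 10 antibodies named. They spread from rank 54 (Sox2) to rank 397 (Notch3) and included none of the extremes of the panel, which ran from -4.38 to 1.69.

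Of a further list of Notch, Hedgehog and stemness components, 12 antibodies were on the panel, and 5 of these passed the test, 4 lower and 1 higher. The panel's share of calls was 55.0%, and the median log2 fold change of the list was 0.01. At an unadjusted p of 0.05 in limma, 7 of the 12 passed, against 275 of the 440. The groups did not overlap for any of the 12, where 85.9% of the panel showed no overlap. Among kinases that act on GLI proteins, PKA-a fell by 0.33 log2 units (adjusted p = 0.00603), where the label does not say which alpha subunit is meant. GSK-3B fell by 0.59 (adjusted p = 0.00210), and GSK-3a-b phosphorylated at S21/S9, the inhibited form of the kinase, fell by 1.65 (adjusted p = 0.000141). The antibody to total GSK-3a-b gave 0.22 and did not pass (adjusted p = 0.0585), although it did with trend and robust estimation (adjusted p = 0.0347). With relative loading control centring it was at 0.06 (adjusted p = 0.667).

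None of the 3 target proteins on the list passed the test. c-Myc, a target of Notch, gave levels of 1.03 and 1.05 in untreated samples and of 0.976 and 0.982 after sCT (log2 fold change -0.09, adjusted p = 0.139). Cyclin-D1, which drives entry into S phase, gave 0.08 (adjusted p = 0.230). The survival protein Bcl2, a GLI target, gave 0.14 (adjusted p = 0.0553), and it passed on linear levels (adjusted p = 0.0416) and with trend and robust estimation (adjusted p = 0.0328). With relative loading control centring c-Myc was at -0.24 and passed (adjusted p = 0.0322), while Cyclin-D1 and Bcl2 turned to -0.08 and -0.02 without passing.

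Among stemness proteins, CD44, a hyaluronan receptor found on glioma stem-like cells, rose from 0.900 and 0.895 to 1.07 and 1.08, a log2 fold change of 0.26 (adjusted p = 0.00681). This call was lost without sCT replicate 2 (adjusted p = 0.0514) and with relative loading control centring (0.10, adjusted p = 0.351). b-Catenin, the effector of Wnt signalling, fell by 0.49 log2 units (adjusted p = 0.00160), while its form phosphorylated at T41/S45 gave -0.05 (adjusted p = 0.380). Stat3 and Stat3 phosphorylated at Y705 gave 0.07 and 0.09 and did not pass the test (adjusted p = 0.294 and 0.144), and both turned with relative loading control centring, to -0.09 and -0.07. Of the 12 antibodies of the list, 8 kept their direction in every alternative run.

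The antibodies whose pattern was most like that of Sox2 were Rb phosphorylated at S807/S811, KAP1, BAP1, total Rb and ULK1 phosphorylated at S757. Likeness was the Euclidean distance over the 4 samples between log2 levels, each centred on the antibody's own mean, and it ran from 0.0779 to 0.136 for these 5. Since the groups differ strongly, it reflects mainly a fall of similar size. Rb is a repressor of cell cycle genes, and phosphorylated Rb went from a mean of 2.66 to 1.41 while total Rb went from 1.15 to 0.625. KAP1, a corepressor bound by zinc finger proteins, went from 1.03 to 0.543, and BAP1, a nuclear deubiquitinase, from 1.27 to 0.645. ULK1, a kinase that starts autophagy, went from 0.956 to 0.529 at the site that mTOR phosphorylates. The nearest of the other 9 antibodies was Gli3, at a distance of 0.401 and at place 49 of the panel, followed by Notch1 at 0.429. YAP and TAZ, the effectors of the Hippo pathway, had log2 fold changes of -0.80 and -1.58 in the same samples, with a call for both.

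**Figure D4:**
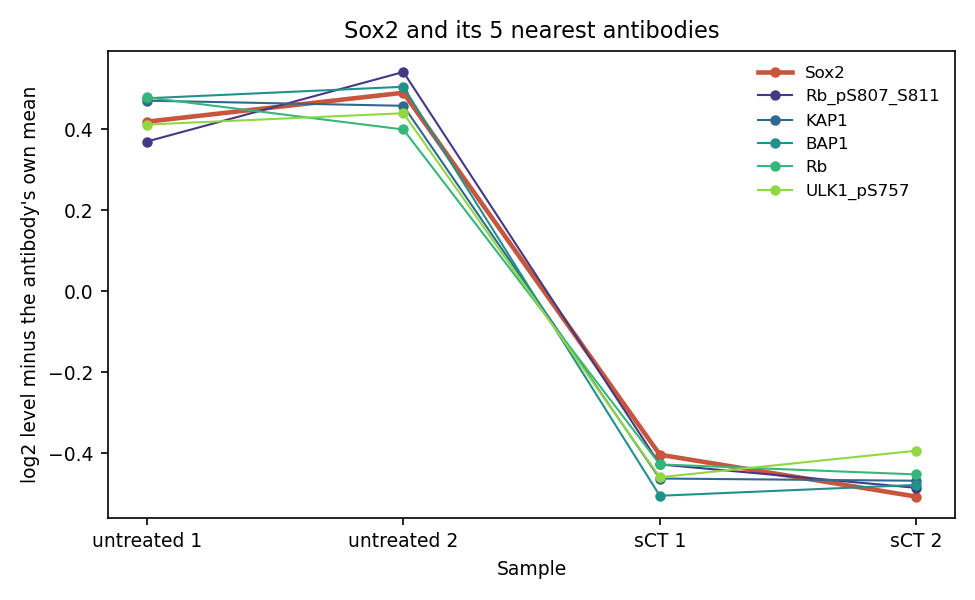
Log2 level minus the antibody's own mean over the 4 samples (y axis) in each sample (x axis), for Sox2 (thick line) and the 5 antibodies nearest to it. All 6 lay above their mean in the untreated samples and below it in the sCT samples, with log2 fold changes between -0.98 and -0.85.

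The scaling of the samples decided several of these calls. Of the 10 antibodies, 6 kept their direction in every alternative run for them, and these were Sox2, Gli3, Gli1, Notch3 and both forms of Notch1. Scaling turned HES1, Patched and Oct-4, and Jagged1 came to 0.01 when untreated replicate 2 was left out. Sox2 was at -0.68 under quantile normalization (adjusted p = 0.00327) and at -1.07 with relative loading control centring. Gli3 was at -0.38 and -0.76, and Gli1 at -0.21 and -0.38, and all 4 of these values passed an adjusted p of 0.05. Relative loading control centring shifted the panel's median by -0.16 (log2), and of the 6 loading controls behind it GAPDH, b-Actin and Cyclophilin-F were called higher after sCT, GAPDH by 0.57. Whether these controls or the panel median track the amount of lysate was not tested.

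**Figure D5:**
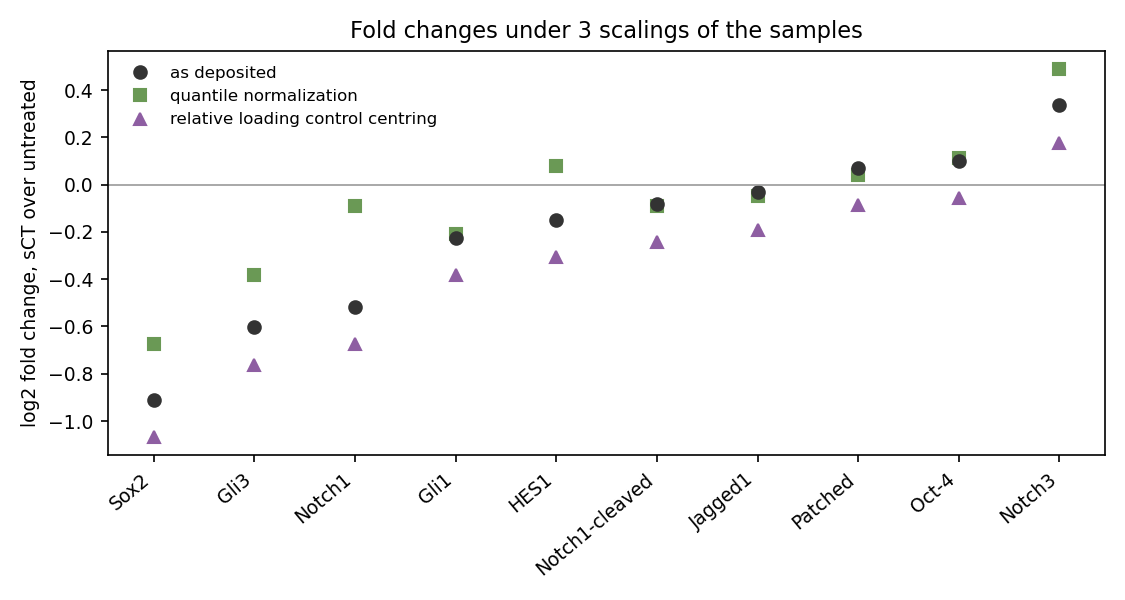
Log2 fold change of sCT over untreated samples (y axis) for the 10 antibodies (x axis) with the levels as deposited, after quantile normalization and after relative loading control centring. Sox2, Gli3 and Gli1 stayed below 0 in all 3 with a call in each, Notch1 came close to 0 under quantile normalization, and HES1, Patched and Oct-4 changed sign under 1 of them.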

How the data were processed

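LN229 cells were measured by RPPA in 2 untreated and 2 sCT-treated samples. According to the methods, serially diluted lysates were printed on nitrocellulose-coated slides, probed with antibodies, developed with DAB and quantified as spot intensities with Array-Pro Analyzer. The authors deposited 1 linear ratio for each antibody and sample. The steps from spot intensity to these ratios are not given in the sources used here.

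Levels were taken to log2 without a pseudocount, because all were above 0, and no antibody was filtered out. The comparison of groups used limma 3.58.1 under R 4.3.3 (lmFit, eBayes, no covariates, 2 residual and 2.59 prior degrees of freedom), two-sided, with Benjamini-Hochberg adjustment over the 440 antibodies. Any adjusted p-value with no test beside it comes from limma. The fit was checked on simulated panels with known changes in either direction and independent noise for each antibody and sample. No difference in scaling between samples was simulated, so the check does not bear on it. Pairs were compared with an exact permutation test.

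The antibodies, the pathway, marker and loading control lists, the tests and the alternatives were chosen with earlier results of these data known. All antibodies of the pathway list that were present, the 5 nearest to Sox2, YAP and TAZ are named by rule. The loading controls named, CD68, LDHA and the antibodies of the closing section were added. Alternatives covered the scale, the scaling of samples, the test, the variance model, a filter on low levels, each sample left out and the replicate block.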

Additional observations from a re-analysis of the deposited data

How the results depend on the processing

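Of the 6 calls among the 10 antibodies, all were kept on linear levels, with median centring and with the replicate number as a block. With the replicate block, adjusted p was 0.00594 for Sox2 and 0.0447 for HES1. Deviations from group means, taken over the panel, correlated between same-numbered samples (r = 0.586). LDHA, whose replicates stood 6.46-fold (untreated) and 5.04-fold (sCT) apart in the same direction, enters this r, and its part was not tested. With 2 pairs and no stated link the numbers were not taken as pairs. Quantile normalization kept 4 and lost Notch1 and HES1, with 3 lower, and HES1 reversed to 0.08. Relative loading control centring kept 5, lost Notch3, leaving 0 higher, and added cleaved Notch1. The eBayes fit with trend and robust estimation lost HES1 (adjusted p = 0.0795). A filter on the 10% of antibodies lowest in mean level over all samples removed Notch1, so it has no value there. That mean includes the sCT samples, so a fall after sCT lowers it, and it does not measure signal. Over the panel, lower calls went from 148 to 109 with this filter, while higher calls stayed at 94. The unequal-variance test on linear levels called 0 of the 10 after adjustment (0 lower and 0 higher) and 4 at an unadjusted p of 0.05, and over the panel it called 1 after adjustment, with 1 lower and 0 higher, and 155 unadjusted. The cause of these differences was not tested.

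With each sample left out, which assumes that a lone sample varies as much as the other group does, 3 to 4 of the 10 were called lower. Over the panel, where 242 were called, the count was 148 without sCT replicate 1, 158 without sCT replicate 2 and at most 214. For higher calls, 94 in all, it was 38 without sCT replicate 1, 43 without sCT replicate 2, 55 without untreated replicate 2 and at most 76, and 29 with relative loading control centring. On the pathway list, where 5 were called, the unequal-variance test called 0 (0 lower, 0 higher). Its 1 higher call became 2 on linear levels, 3 with trend and robust estimation, 0 with relative loading control centring, and 0 to 1 with each sample left out (0 without sCT replicate 2). The 2 samples a group and the unknown background limit the precision of all values.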

Other observations

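Other antibodies to proteins linked with glioma stem-like cells, picked by role after the results above, moved in both directions. Of 7 such antibodies, 5 were called lower and 1 higher, where the panel had 33.6% lower and 21.4% higher. Those to total EphA2 and to its sites S897 and Y588 read the same protein, and CD44, called higher above, is not among the 7. The counts depend on this choice of antibodies and do not test enrichment. FOXM1, a transcription factor of proliferating cells, went from 1.503 and 1.65 in untreated samples to 0.529 and 0.547 after sCT, a log2 fold change of -1.55 (adjusted p = 0.000146). The receptor EphA2 went from 1.38 and 1.53 to 0.771 and 0.826 (log2 fold change -0.86, adjusted p = 0.000856). EphA2 phosphorylated at S897, a site modified without ligand, fell by 1.81 log2 units (adjusted p = 0.000113), while its tyrosine site Y588 rose by 0.17 (adjusted p = 0.0468). The adhesion molecule CD171 fell by 0.37 log2 units (adjusted p = 0.00334) and the growth factor binding protein IGFBP2 by 0.43 (adjusted p = 0.0213). MSI2, an RNA-binding protein of stem cells, had levels of 1.05 in both untreated samples and of 1.11 and 1.10 after sCT (log2 fold change 0.08, adjusted p = 0.170).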
